A study of Caenorhabditis elegans with 9 samples.

Results

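The glutathione S-transferase (GST) family of Caenorhabditis elegans was taken as all protein-coding genes whose public name on the WBcel235 build is gst followed by a number. This gave 44 of the 28749 genes in the expression table, and no measured value entered the choice. Omega (gsto) and kappa (gstk) transferases were kept as a separate list. Of the 44 genes, 34 reached 1 FPKM (reads scaled by gene length and library total) in at least 3 libraries and were tested, and the other 10 are given as values.

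Poly(A) RNA of whole worms was sequenced in 3 groups of 3 libraries. N2 was the wild-type Bristol strain. WLZ1 carried the integrated transgene wlzIs1 [snb-1p::Hsa-LRRK2 + lin15(+)], in which the worm's snb-1 promoter drives wild-type human LRRK2, a kinase linked to Parkinson's disease, in all neurons. WLZ3 carried wlzIs3 [snb-1p::Hsa-LRRK2(G2019S)+ lin15(+)], with a disease-linked form of the kinase. All strains grew at 20 °C on Escherichia coli OP50, and the animals' stage, age and sex were not given in the sources used here. Each transgenic strain is 1 integrated line, so the human protein, the insertion site, the amount of transgene and the lin-15 marker cannot be told apart. The labels do not say whether the replicates were separate cultures. The p-values therefore reflect only how far these libraries differ from each other, and that spread may be technical. Reads of the human transgene were not analysed here.

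Glutathione S-transferases join the tripeptide glutathione to reactive, mostly fat-soluble molecules, including products of lipid oxidation, which makes them easier to export. In worms the family is large, is expressed in the intestine and other tissues, and several of its genes, gst-4 foremost, are switched on by the transcription factor SKN-1 under oxidative stress. The enzymes act between glutathione synthesis on one side and exporters of conjugates on the other, alongside cytochrome P450 enzymes and UDP-glucuronosyltransferases.

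Libraries held 38128734 to 53336536 reads, at which 6 reads on 1 kb of exon correspond to 0.112 to 0.157 FPKM. Of whole counts from 2 to 20 reads, 80.6% to 85.6% were even, as when each fragment is counted as 2 reads. On that count 6 reads are 3 fragments, and the read numbers given here overstate the number of fragments. Over the 9 libraries 14 genes averaged 10 FPKM or more, 18 between 1 and 10 FPKM and 12 under 1 FPKM. All but gst-18 and gst-37 were above 0 in every library, and those genes had at most 4 reads in any library. The predicted proteins ran from 174 to 254 residues with a median of 209. Chromosome II held 25 of the genes, V held 9, IV held 4, X held 3, I held 2 and III held 1.

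Much of the family level came from a pair of genes, gst-1 and gst-7, that were not called against N2. gst-1 (R107.7, chromosome III 9059331 to 9060181), a pi-class enzyme known for protecting dopamine neurons against manganese, stood at 189, 182 and 174 FPKM in N2 replicates 1 to 3, at 200.5, 198 and 196 in WLZ1 and at 179, 185 and 159 in WLZ3. gst-7 (F11G11.2, chromosome II 4882062 to 4883358) stood at 106, 114 and 118 FPKM in N2, at 128, 116 and 146 in WLZ1 and at 128, 125 and 113 in WLZ3. Every WLZ1 library was above every N2 library for gst-1, while the groups overlapped for gst-7. For WLZ1 against N2 neither passed the threshold (log2 difference of 0.13 with adjusted p = 0.084 for gst-1, and 0.20 with adjusted p = 0.0596 for gst-7). Both were called higher in WLZ1 under median-of-ratios scaling (adjusted p = 0.00428 and 0.00267). gst-1 was also called higher without WLZ3 replicate 3 (0.0318) and gst-7 without WLZ1 replicate 2 (0.0145). Over the 17 alternative settings their adjusted p ran from 0.00428 to 0.239 and from 0.00267 to 0.198.

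Summed over the 44 genes, the level stood at 778, 728 and 736 FPKM in N2, at 647, 649 and 634 in WLZ1 and at 683, 665 and 666 in WLZ3. All 6 transgenic libraries lay below the 3 N2 libraries. The means were 747 ± 26.7, 643 ± 7.88 and 671 ± 10.01 FPKM (mean ± SD, n = 3 here and throughout). gst-1 and gst-7 together made up 39.4% of the sum in N2, 51.0% in WLZ1 and 44.1% in WLZ3. Without them the other 42 genes summed to 453 ± 26.2 FPKM for N2, 316 ± 21.2 for WLZ1 and 375 ± 19.3 for WLZ3. As a share of all FPKM the family took 0.0967% for N2, 0.0851% for WLZ1 and 0.0861% for WLZ3. The order of the transgenic strains in the summed level depended on the scaling. Under median-of-ratios scaling the mean sums were 717 for N2, 684 for WLZ1 and 657 for WLZ3. Quantile normalization gave 722, 670 and 659, so WLZ3 was the lowest under both.

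**Figure D1:**
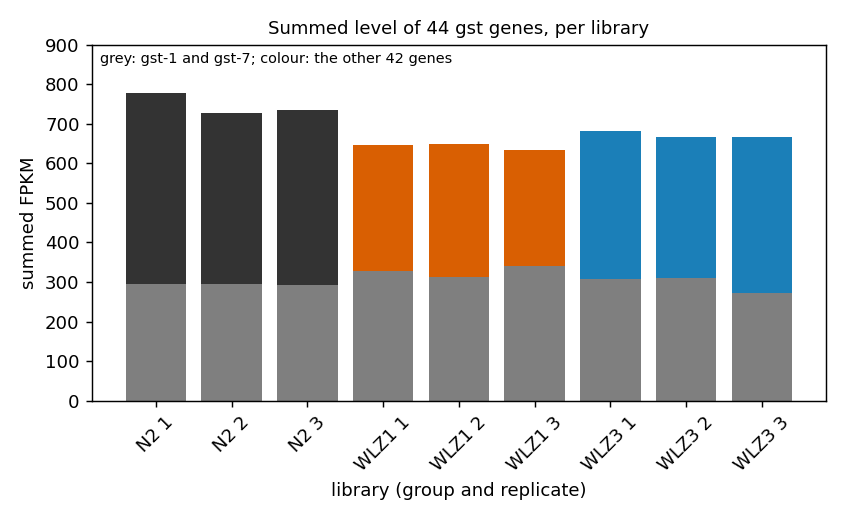
Summed FPKM of the 44 GST genes in each library, with gst-1 and gst-7 in grey and the other 42 genes in colour. The 3 N2 bars reach 728 to 778 FPKM and the 6 transgenic bars 634 to 683, while the grey parts differ less than the coloured ones.

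**Figure D2:**
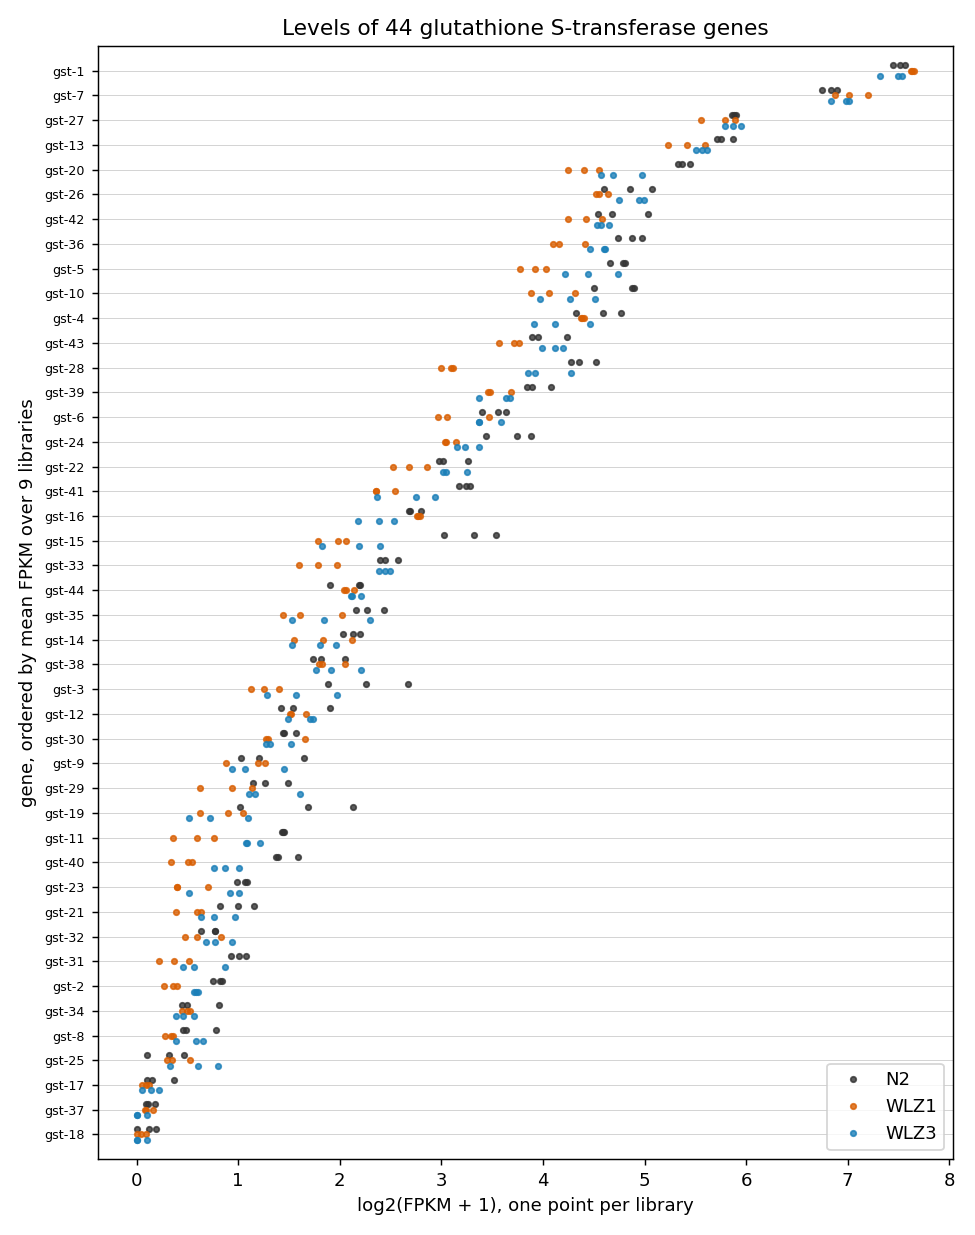
Level of each of the 44 genes as log2(FPKM + 1), 1 point per library, ordered by the mean over the 9 libraries. gst-1 and gst-7 stand above 100 FPKM, and in many rows below them the N2 points lie to the right of the WLZ1 points.

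The comparison of WLZ1 with N2 asked which GST genes differ in worms with neuronal wild-type human LRRK2. Of the 34 tested genes, 21 were called lower (limma, Benjamini-Hochberg adjusted p under 0.05 over 14862 genes), 13 were not called and none was called higher. An unadjusted p under 0.05 was reached by 23. In all genes tested, 41.1% were called lower, 26.6% higher and 67.6% either way, against 61.8% of the tested GST genes called lower. The median log2 difference was -0.40 over the tested GST genes and -0.13 over all tested genes. Under median-of-ratios scaling 14 GST genes were lower and 2 higher, so that 41.2% of the GST genes and 35.7% of all genes were lower. Under quantile normalization 10 were lower and 3 higher, and the shares lower were 29.4% and 27.3%. In the share called lower, the distance from all genes seen without rescaling was thus largely lost. The shares called higher were 5.88% of GST genes and 37.0% of all genes under median-of-ratios scaling, and 8.82% and 35.5% under quantile normalization. Relative to the median of all genes, the GST median was -0.27 without rescaling, -0.26 under median-of-ratios scaling and -0.19 under quantile normalization. In 19 tested genes every WLZ1 library was below every N2 library, where 42.5% of all tested genes were so separated, and in 1, gst-1, every WLZ1 library was above (28.3% of all genes).

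The largest difference on the log2(FPKM + 1) scale was that of gst-15 (F37B1.4, II 13611770 to 13613196), while the ratio of means was larger for gst-40 (4.52-fold) and gst-11 (3.47-fold), both at low levels. It stood at 7.15, 9.00 and 10.7 FPKM in N2, at 2.95, 2.45 and 3.18 in WLZ1 and at 2.55, 3.56 and 4.25 in WLZ3. Both strains lay wholly below N2 and overlapped each other. The N2 mean was 3.12-fold that of WLZ1 (log2 difference -1.35 ± 0.17 SE, adjusted p = 0.000149) and 2.59-fold that of WLZ3 (-1.16 ± 0.17, adjusted p = 0.00246). Reads behind these values were 206 to 397 in N2, 93 to 128 in WLZ1 and 89 to 164 in WLZ3. WLZ3 against WLZ1 was not called for gst-15.

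gst-28 (Y53F4B.31, II 15166194 to 15167577) had the largest log2(FPKM + 1) difference between the transgenic strains among tested genes. It stood at 21.97, 18.3 and 19.5 FPKM in N2, at 7.65, 7.55 and 6.96 in WLZ1 and at 18.3, 13.4 and 14.2 in WLZ3. WLZ1 lay below the other groups in every library, and WLZ3 lay just under N2, with its highest library close to the lowest of N2. The N2 mean was 2.70-fold that of WLZ1 (log2 difference -1.32 ± 0.11 SE, adjusted p = 1.66e-05), and the WLZ3 mean was 2.07-fold that of WLZ1 (0.95 ± 0.11, adjusted p = 0.000384). Both calls held in all 17 alternatives. WLZ3 against N2 was -0.37 ± 0.11 (adjusted p = 0.033). That call ended without N2 replicate 1, 2 or 3 (adjusted p = 0.0861, 0.0505 and 0.0755) or WLZ3 replicate 2 or 3 (0.106 and 0.0971), and also under quantile normalization (0.144), without a filter (0.0588) and with only N2 and WLZ3 in the fit (0.0585).

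gst-20 (Y48E1B.10, II 13608154 to 13609824) was the most abundant gene with a call against N2 in both strains. It stood at 42.7, 39.2 and 40.4 FPKM in N2, at 20.2, 22.4 and 18.0 in WLZ1 and at 24.8, 22.8 and 30.4 in WLZ3. The groups did not overlap and ran in the order N2, WLZ3, WLZ1. The log2 difference from N2 was -0.98 ± 0.11 SE in WLZ1 (adjusted p = 5.94e-05) and -0.64 ± 0.11 in WLZ3 (0.00361), and both calls held in all 17 alternatives. WLZ3 was 1.29-fold above WLZ1 (adjusted p = 0.0303), a call that ended without WLZ1 replicate 1 or 3 (0.0688 and 0.0959) or WLZ3 replicate 3 (0.0917). It also ended under median-of-ratios scaling (0.119), quantile normalization (0.127), without a filter (0.0575) and with only these strains in the fit (0.0586).

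The low-level genes gst-40, gst-3 and gst-11 also showed large relative differences, on few reads. gst-40 (F56B3.10, IV 760502 to 762419) stood at 1.62, 2.00 and 1.59 FPKM in N2, at 0.421, 0.269 and 0.464 in WLZ1 and at 0.827, 0.698 and 1.01 in WLZ3, from 55 to 84, 12 to 22 and 28 to 46 reads. Its groups did not overlap, and it was called lower in WLZ1 (log2 difference -0.98 ± 0.13 SE, adjusted p = 0.000146) and in WLZ3 (-0.57 ± 0.13, 0.00984), with both calls kept in the 16 alternatives that tested it. gst-3 (K08F4.11, IV 10139380 to 10140243) stood at 2.69, 3.80 and 5.37 FPKM in N2, at 1.64, 1.19 and 1.38 in WLZ1 and at 1.44, 1.97 and 2.93 in WLZ3. WLZ1 lay below N2 throughout (-1.01 ± 0.23, adjusted p = 0.00329), while the highest WLZ3 library exceeded the lowest of N2. The gst-3 call in WLZ3 (adjusted p = 0.0469) ended without N2 replicate 2 or 3 (0.108 and 0.152), without WLZ1 replicate 1, 2 or 3 (0.062, 0.0567 and 0.064) and without WLZ3 replicate 1 or 2 (0.143 and 0.106), and also with a pseudocount of 0.1 (0.0527), without a filter (0.09), under quantile normalization (0.137) and with only N2 and WLZ3 in the fit (0.0814). gst-11 (R11G1.3, X 3632367 to 3633754) stood at 1.69, 1.74 and 1.71 FPKM in N2, at 0.511, 0.692 and 0.279 in WLZ1 and at 1.13, 1.32 and 1.12 in WLZ3. It was called lower in WLZ1 (-0.87 ± 0.13, adjusted p = 0.000323) and stood 2.41-fold higher in WLZ3 than its WLZ1 mean (adjusted p = 0.00846). gst-11, gst-23 and gst-40 had no WLZ1 library at 1 FPKM and so entered the test through the other groups. All are among the 21 genes called lower in WLZ1. Their calls, and their part in that count, rest on a filter they passed only in groups where they were higher.

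Among genes with a described role, gst-10 and gst-24, whose enzymes are known for conjugating the lipid oxidation product 4-hydroxynonenal in the case of gst-10 and for induction by oxidative stress in the case of gst-24, were called lower in both strains. gst-10 (Y45G12C.2, V 2561690 to 2564645) stood at 28.9, 28.4 and 21.7 FPKM in N2, at 18.9, 15.7 and 13.7 in WLZ1 and at 21.9, 14.7 and 18.3 in WLZ3. All WLZ1 libraries were below N2, and 1 WLZ3 library was just above the lowest N2 library. The difference was -0.67 ± 0.16 on the log2 scale in WLZ1 (adjusted p = 0.00535) and -0.51 ± 0.16 in WLZ3 (0.0393). The WLZ3 call of gst-10 ended without N2 replicate 1 or 2 (0.0972 and 0.121), WLZ1 replicate 2 (0.0513) or WLZ3 replicate 2 or 3 (0.119 and 0.0799), without a filter (0.0755), under quantile normalization (0.0615) or with only N2 and WLZ3 in the fit (0.0505), and its adjusted p over the alternatives ran from 0.0245 to 0.121. gst-24 (F37B1.1, II 13610443 to 13611366) stood at 13.8, 12.4 and 9.88 FPKM in N2, at 7.18, 7.23 and 7.85 in WLZ1 and at 8.42, 7.91 and 9.33 in WLZ3. No library of either strain reached the lowest N2 library. The difference was -0.62 ± 0.11 in WLZ1 (adjusted p = 0.00119, and 0.478 under quantile normalization) and -0.44 ± 0.11 in WLZ3 (0.0185). The gst-24 call in WLZ3 ended without N2 replicate 2 (0.0637) or WLZ3 replicate 1 or 2 (0.0514 and 0.0603) or under quantile normalization (0.189), with adjusted p from 0.0104 to 0.189 over the alternatives.

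gst-4 (K08F4.7, IV 10142225 to 10143099), the gene whose promoter is the usual reporter of SKN-1 activity, was not called in any comparison. It stood at 26.2, 19.1 and 23.1 FPKM in N2, at 20.2, 19.9 and 19.8 in WLZ1 and at 14.0, 16.4 and 21.1 in WLZ3. Both strains overlapped N2, and N2 and WLZ3 each varied more than the 3 nearly equal WLZ1 libraries. Its log2 difference was -0.17 ± 0.14 SE in WLZ1 (adjusted p = 0.315) and -0.40 ± 0.14 in WLZ3 (0.0585). The WLZ3 value crossed the threshold without N2 replicate 2 (0.0404) or WLZ3 replicate 3 (0.0181), and over the alternatives its adjusted p ran from 0.0181 to 0.185.

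gst-42 (D1053.1, X 11726264 to 11727936), the zeta-class enzyme that acts as maleylacetoacetate isomerase in tyrosine breakdown, stood at 31.8, 22.2 and 24.6 FPKM in N2, at 20.4, 22.95 and 18.0 in WLZ1 and at 24.1, 22.1 and 22.8 in WLZ3. The groups overlapped, and N2 replicate 1 was the highest of the 9 libraries. It was called lower in WLZ1 (-0.33 ± 0.13, adjusted p = 0.0413), and that call held in 6 of 17 alternatives, with adjusted p from 0.016 to 0.375. It ended without N2 replicate 1 or 3 (0.119 and 0.0576), WLZ1 replicate 1 or 3 (0.0834 and 0.14) or WLZ3 replicate 1, 2 or 3 (0.0515, 0.0532 and 0.0572), under median-of-ratios scaling or quantile normalization (0.229 and 0.375), without a filter (0.0714) and with only N2 and WLZ1 in the fit (0.0715). WLZ3 was not called against N2 (-0.17, adjusted p = 0.322).

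The other abundant genes had smaller differences. gst-27 (Y53F4B.30, II 15164890 to 15165731) stood at 57.9 ± 0.804 FPKM for N2, 53.0 ± 6.40 for WLZ1 and 57.6 ± 3.16 for WLZ3, and was not called in any comparison, although without WLZ1 replicate 2 it was called lower in WLZ1 (adjusted p = 0.0415, with a range of 0.0415 to 0.899 over the alternatives). gst-13 (T26C5.1, II 9231457 to 9232344) stood at 57.7, 52.9 and 51.4 FPKM in N2, at 41.7, 47.2 and 36.6 in WLZ1 and at 48.0, 44.6 and 46.5 in WLZ3. It was called lower in WLZ1 (-0.37 ± 0.09, adjusted p = 0.00442, and 0.0678 under median-of-ratios scaling) and not in WLZ3 (-0.21, adjusted p = 0.0792), although every WLZ3 library was below N2. The gst-13 value in WLZ3 crossed the threshold with only N2 and WLZ3 in the fit (0.028) and without WLZ1 replicate 2 or 3 (0.0336 and 0.0341), and that against WLZ1 without WLZ1 replicate 2 (0.0366), with ranges of 0.028 to 0.189 and 0.0366 to 0.788 over the alternatives.

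Among the remaining genes called lower in WLZ1, gst-5, gst-33, gst-36 and gst-41 fell by 0.64 to 0.84 on the log2 scale. gst-5 (R03D7.6) stood at 26.0 ± 1.47 FPKM in N2 and 14.1 ± 1.37 in WLZ1, gst-36 (R07B1.4) at 28.2 ± 2.34 and 17.8 ± 2.21, gst-41 (R13D7.7) at 8.42 ± 0.359 and 4.36 ± 0.413, and gst-33 (C02A12.1) at 4.54 ± 0.349 and 2.47 ± 0.451. Their libraries did not overlap between the groups, and the calls of gst-33 and gst-41 ended under quantile normalization (adjusted p = 0.412 and 0.123). gst-39 and gst-43 fell by 0.39 and 0.34 (adjusted p = 0.00869 and 0.0147), calls that ended under both other scalings. gst-6, gst-19, gst-22, gst-23 and gst-35 made up the rest of the 21. gst-6 and gst-19 overlapped N2. The call of gst-6 (adjusted p = 0.0347) ended without N2 replicate 1 or 3 (0.0984 and 0.0846) or WLZ1 replicate 1 or 3 (0.105 and 0.122), and that of gst-19 (0.0355) without N2 replicate 2 or 3 (0.125 and 0.0876) or WLZ1 replicate 1 or 2 (0.0681 and 0.107). For gst-22 (0.0146) the libraries were N2 replicate 3 and WLZ1 replicate 1 (0.0589 and 0.0553), and its direction turned under quantile normalization (0.19). For gst-35 (0.0314) they were N2 replicates 1 and 3 (0.0603 and 0.096) and WLZ1 replicates 2 and 3 (0.103 and 0.0849). Under median-of-ratios scaling the calls of gst-6 (0.173), gst-22 (0.0687) and gst-35 (0.0555) ended, and under quantile normalization those of gst-6 (0.385), gst-19 (0.236), gst-22 (0.239), gst-23 (0.195) and gst-35 (0.739). Without a filter gst-6, gst-19 and gst-35 were not called (0.0579, 0.0631 and 0.0592), and with only N2 and WLZ1 in the fit gst-6 was not (0.054). gst-2, gst-6, gst-14, gst-16, gst-19, gst-22, gst-25, gst-31, gst-35 and gst-36 were picked for description after their values were seen.

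**Figure D3:**
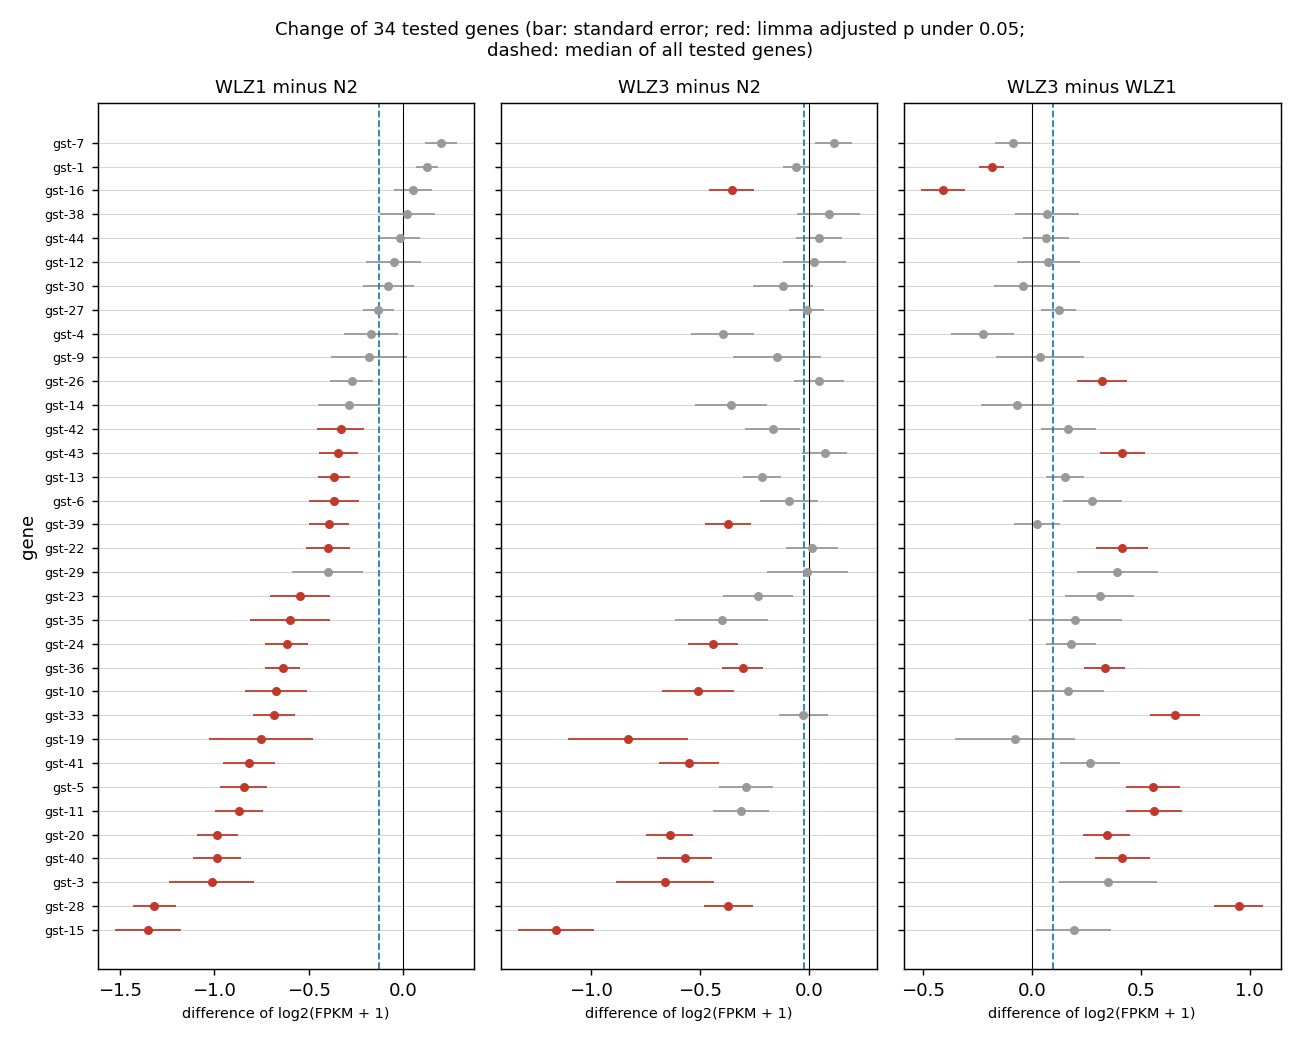
Difference of log2(FPKM + 1) for the 34 tested genes in each comparison, ordered by the difference between WLZ1 and N2, with the standard error as a bar and calls in red. Against N2 the red points lie left of 0 in both panels, and in the panel of WLZ3 minus WLZ1, 10 of the 12 red points lie right of 0.

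The comparison of WLZ3 with N2 asked the same of worms with the G2019S form. It used the same N2 libraries, so its values are set beside those of WLZ1 and are not independent of them. Of the 34 tested genes 12 were called lower, 22 were not called and none was called higher, and 16 had an unadjusted p under 0.05. Over all genes tested, 22.7% were called lower, 13.3% higher and 36.0% either way, against 35.3% of the tested GST genes called lower. The median log2 difference was -0.26 over the GST genes and -0.02 over all genes. In 12 tested genes the WLZ3 libraries all lay below N2 (29.7% of all genes), and in none did they all lie above. Under median-of-ratios scaling 12 GST genes were again lower, against 21.6% of all genes. Quantile normalization left 3 calls, 8.82% of the GST genes against 15.1% of all genes, and the test without a filter left 7. No GST gene was called higher under median-of-ratios scaling or quantile normalization, against 16.5% and 15.9% of all genes. Relative to the median of all genes, the GST median was -0.24 without rescaling, -0.24 under median-of-ratios scaling and -0.17 under quantile normalization. Without N2 replicate 2 or WLZ3 replicate 2 there were 6 lower calls, and without N2 replicate 3 or WLZ3 replicate 1 there were 7.

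The WLZ3 calls of gst-15 and gst-20 held in all 17 alternatives, and that of gst-40 in the 16 that tested it. gst-41 (V 7398396 to 7399302), at 8.75, 8.04 and 8.46 FPKM in N2, at 4.84, 4.14 and 4.11 in WLZ1 and at 6.67, 4.17 and 5.72 in WLZ3, kept its call (-0.55 ± 0.14, adjusted p = 0.0159) in all but quantile normalization (0.077). Both transgenic strains lay wholly below N2 in that gene. gst-39 (Y53F4B.33, II 15171163 to 15171916) stood at 13.9, 13.3 and 15.9 FPKM in N2, at 10.2, 11.8 and 10.01 in WLZ1 and at 11.8, 11.5 and 9.38 in WLZ3, with -0.37 ± 0.11 in WLZ3 (adjusted p = 0.0244). That call ended without N2 replicate 3 (0.0883) or WLZ3 replicate 3 (0.0721) and under quantile normalization (0.211). gst-36 was called lower in WLZ3 at 22.6 ± 1.32 FPKM (adjusted p = 0.0328), and the call ended without N2 replicate 1 or 2 (0.0846 and 0.0898) or WLZ3 replicate 1, 2 or 3 (0.0616, 0.103 and 0.0562), without a filter (0.0583) and under quantile normalization (0.0609). gst-19 (F37B1.8) ranged from 1.02 to 3.37 FPKM in N2 and from 0.433 to 1.14 in WLZ3, and its call (adjusted p = 0.0429) ended without N2 replicate 2 or 3 (0.138 and 0.11), WLZ1 replicate 1 or 3 (0.0611 and 0.0548) or WLZ3 replicate 1 or 2 (0.098 and 0.123), without a filter (0.0803), under quantile normalization (0.0561) and with only N2 and WLZ3 in the fit (0.0732).

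gst-16 (F37B1.5, II 13622967 to 13624440) was called lower in WLZ3 than in either other group. It stood at 5.96, 5.41 and 5.45 FPKM in N2, at 5.84, 5.93 and 5.77 in WLZ1 and at 4.24, 4.79 and 3.53 in WLZ3. N2 and WLZ1 overlapped, and WLZ3 lay below both. WLZ3 was called lower than WLZ1 (-0.41 ± 0.10, adjusted p = 0.0122) in every alternative, with a largest adjusted p of 0.0419. Against N2 (-0.35 ± 0.10, adjusted p = 0.0254) the call ended without N2 replicate 1, 2 or 3 (0.0581, 0.0588 and 0.0604) or WLZ3 replicate 1 or 3 (0.0587 and 0.0734), under quantile normalization (0.457) and with only N2 and WLZ3 in the fit (0.0525). Quantile normalization also called gst-16 higher in WLZ1 than in N2 (0.00189, with a range of 0.00189 to 0.832 over the alternatives).

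The direct comparison of WLZ3 with WLZ1 tested the difference between the strains. WLZ3 was called higher in 10 tested genes and lower in 2, with 22 not called, where 29.6% of all tested genes were higher, 12.6% lower and 42.1% called either way. In 11 tested genes every WLZ3 library lay above every WLZ1 library (37.1% of all genes) and in 2 every one lay below (18.5%). The share called higher among GST genes was thus near that of all genes. The median was 0.19 over the GST genes and 0.10 over all genes, and under quantile normalization it was -0.01 with 1 higher call. In 20 of the 34 tested genes the means ran in the order N2, WLZ3, WLZ1. The share of all tested genes in that order was not counted. Their medians had the same signs, at -0.13 for WLZ1 against N2, -0.02 for WLZ3 against N2 and 0.10 between the strains. The order is therefore not shown to be particular to the family.

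Genes called higher in WLZ3 than in WLZ1 were gst-28, gst-20, gst-36 and gst-40, which were also called lower than N2 in both strains, gst-5, gst-11, gst-22, gst-33 and gst-43, which were called lower than N2 in WLZ1, and gst-26. gst-33 (V 3467451 to 3468562) stood at 4.94, 4.27 and 4.43 FPKM in N2, at 2.45, 2.93 and 2.03 in WLZ1 and at 4.46, 4.24 and 4.62 in WLZ3. WLZ3 overlapped N2 and lay 1.80-fold above WLZ1 (log2 difference 0.66 ± 0.11 SE, adjusted p = 0.00217). gst-5 (II 10950352 to 10951603) stood at 20.7, 17.6 and 25.7 FPKM in WLZ3 against 14.2, 15.4 and 12.6 in WLZ1 (0.56 ± 0.13, adjusted p = 0.00778), and it was called lower than N2 in WLZ3 only without WLZ3 replicate 3 (0.0212, with a range of 0.0212 to 0.29 over the alternatives). gst-43 (Y71F9AL.5, I 2901325 to 2903006) stood at 17.9, 13.9 and 14.5 FPKM in N2, at 12.6, 10.9 and 12.2 in WLZ1 and at 14.9, 16.4 and 17.3 in WLZ3 (0.42 ± 0.10 against WLZ1, adjusted p = 0.0116). For gst-5, gst-11, gst-33 and gst-43 the calls ended under quantile normalization alone among the alternatives that tested each gene (17 for gst-5 and gst-43, 16 for gst-11 and gst-33), at adjusted p = 0.0533, 0.0852, 0.0826 and 0.232. gst-11 and gst-40 had no WLZ1 library at 1 FPKM. Their calls here, and their part in the count of higher calls, also rest on a filter passed only in groups where they were higher.

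Other calls between the strains were closer to the threshold. gst-40 (adjusted p = 0.0274) lost its call without WLZ1 replicate 1 or 2 (0.0569 and 0.0876) or WLZ3 replicate 1 or 3 (0.0543 and 0.0967). gst-36 (0.0194) lost it without WLZ1 replicate 1 or 2 (0.0664 and 0.0602) or WLZ3 replicate 1 or 3 (0.0565 and 0.0664), and gst-22 (0.0217) without WLZ1 replicate 1 or 2 (0.0732 and 0.0533) or WLZ3 replicate 2 (0.0713). Under median-of-ratios scaling and quantile normalization the calls of gst-36 (0.0796 and 0.143) and gst-22 (0.0563 and 0.779) also ended, and under quantile normalization that of gst-40 (0.111). gst-26 (Y53F4B.29, II 15163817 to 15164553) stood at 32.8, 23.2 and 28.1 FPKM in N2, at 22.5, 23.98 and 21.98 in WLZ1 and at 30.8, 25.9 and 29.8 in WLZ3. WLZ3 lay above WLZ1 in every library and both overlapped N2. Its call between the strains (0.32 ± 0.11, adjusted p = 0.049) ended without N2 replicate 3 (0.0676), WLZ1 replicate 1, 2 or 3 (0.109, 0.0708 and 0.12) or WLZ3 replicate 1 or 3 (0.137 and 0.13), without a filter (0.0884) and under median-of-ratios scaling or quantile normalization (0.172 and 0.208). Against N2, gst-26 was called lower in WLZ1 without N2 replicate 2 (0.00709, with a range of 0.00709 to 0.44 over the alternatives). gst-1 was lower in WLZ3 than in WLZ1 (-0.18 ± 0.06, adjusted p = 0.0321), a call that ended without WLZ1 replicate 1, 2 or 3 (0.0871, 0.0688 and 0.0579) or WLZ3 replicate 3 (0.0944) and without a filter (0.0551). gst-7 was called lower in WLZ3 than in WLZ1 only under median-of-ratios scaling (0.0497).

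Position in the genome was not used to choose the genes. With neighbours less than 20 kb apart joined, 25 of the 44 genes lay in 4 arrays, and genes side by side often differed in their values. The array of 9 genes at II 13608154 to 13630887, all on the minus strand, summed to 75.2 ± 1.30 FPKM for N2, 41.8 ± 2.08 for WLZ1 and 47.6 ± 4.62 for WLZ3. Within it gst-20, gst-24, gst-15 and gst-19 were called lower in both strains. gst-14 and gst-12, which lie between gst-15 and gst-16, stood at 3.35 ± 0.255 and 2.11 ± 0.563 FPKM in N2 and at 2.61 ± 0.711 and 1.97 ± 0.181 in WLZ1, and were not called. Leaving out WLZ1 replicate 2 put gst-14 past the threshold in WLZ1 (adjusted p = 0.0421, with a range of 0.0421 to 0.455 over the alternatives).

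The array of 9 genes at II 15163817 to 15185389, also on the minus strand, summed to 128 ± 7.80 FPKM for N2, 98.3 ± 8.84 for WLZ1 and 118.6 ± 2.43 for WLZ3. gst-28 carried 19.9 ± 1.85, 7.38 ± 0.374 and 15.3 ± 2.64 FPKM of these sums, while its neighbour gst-27 differed between groups by less than the spread of its WLZ1 libraries. Besides gst-28, gst-39 was called lower in both strains and gst-35 in WLZ1, and gst-26 was called higher in WLZ3 than in WLZ1. The array of 4 genes at II 4879891 to 4893573 held gst-7 and summed to 125 ± 5.20 FPKM for N2, 140 ± 13.2 for WLZ1 and 134 ± 6.62 for WLZ3. On chromosome IV, gst-3, gst-2 and gst-4 lay between 10139380 and 10143099 and summed to 27.5 ± 3.43, 21.6 ± 0.339 and 19.8 ± 4.36 FPKM. There gst-3 was called lower in WLZ1, gst-4 was not called, and gst-2, which was not tested, stood at 0.769, 0.683 and 0.793 FPKM in N2, at 0.209, 0.279 and 0.315 in WLZ1 and at 0.484, 0.497 and 0.520 in WLZ3, with no overlap between the groups. Tandem copies can be alike in sequence, and how the counting treated reads shared by copies is not known.

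**Figure D4:**
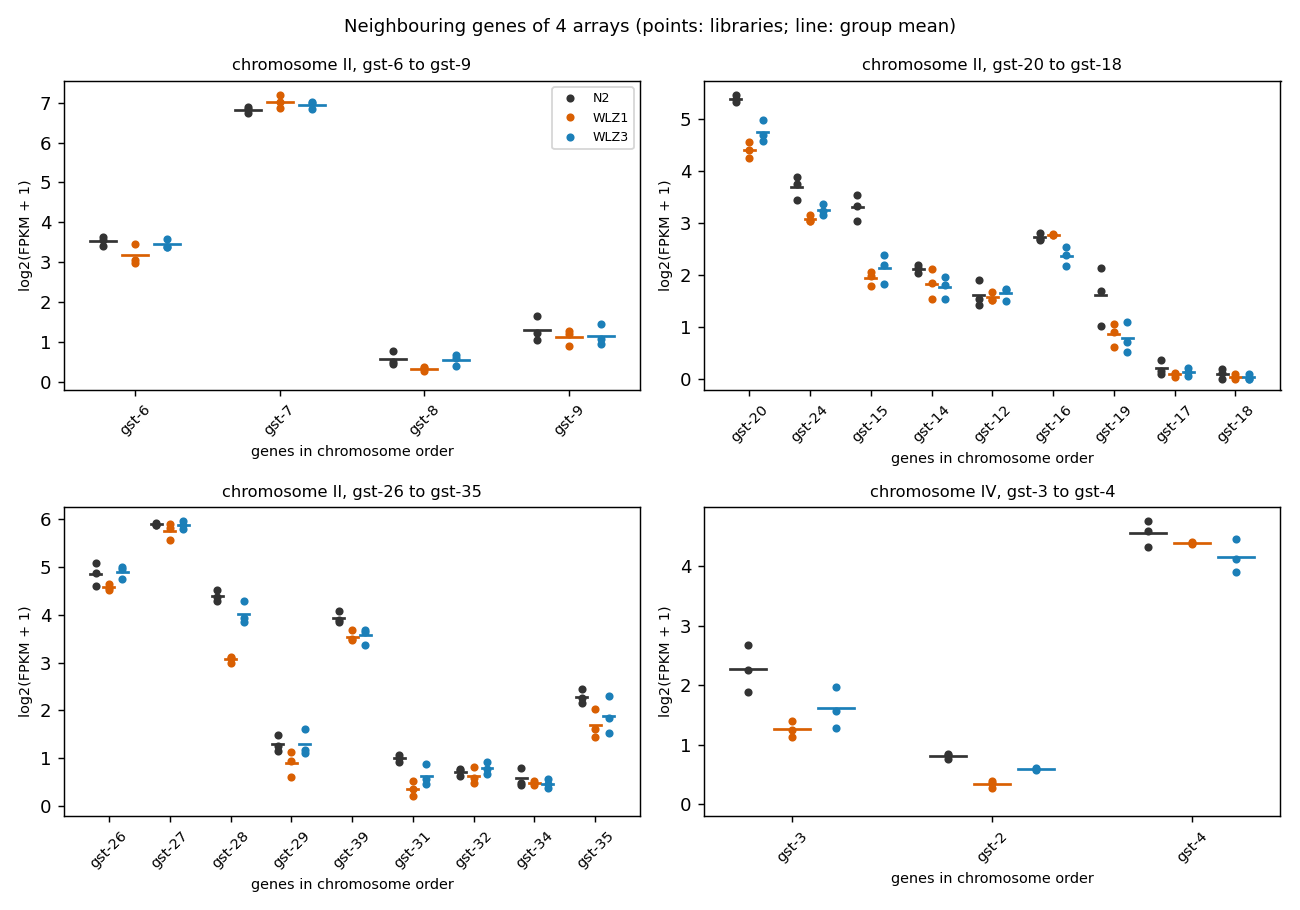
log2(FPKM + 1) of the genes of the 4 arrays in chromosome order, with libraries as points and group means as lines. In the 2 larger arrays gst-15, gst-20, gst-24 and gst-28 show a gap between N2 and WLZ1, while gst-12, gst-27 and gst-32 show overlapping groups.

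The 10 genes that were not tested were gst-2, gst-8, gst-17, gst-18, gst-21, gst-25, gst-31, gst-32, gst-34 and gst-37, none of which averaged above 1.01 FPKM in any group. gst-31 stood at 1.01 ± 0.102 FPKM for N2, 0.294 ± 0.135 for WLZ1 and 0.563 ± 0.240 for WLZ3, from 24 to 38, 6 to 16 and 12 to 26 reads, and both strains lay below N2. gst-25 had its highest mean in WLZ3, 0.507 ± 0.246 FPKM against 0.237 ± 0.155 in N2, with overlapping libraries. Over all 44 genes the mean was lower than in N2 in 39 for WLZ1 and in 34 for WLZ3. The same counts were not made over all genes, whose median log2 differences without a filter were -0.06 and -0.02.

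Exons of 10 of the 44 genes overlap another gene. Strand use in the counting is unknown, so reads in the overlaps cannot be assigned to either gene. gst-36 shares 93 bases on the opposite strand with scav-5, which stood at 5.67 ± 1.77 FPKM for N2, 3.03 ± 0.771 for WLZ1 and 4.65 ± 0.683 for WLZ3, the same order of means as gst-36. gst-4 shares 65 bases on its own strand with dhs-12, which stood at 27.6 ± 0.746, 25.1 ± 0.565 and 29.4 ± 1.05 FPKM. gst-40 shares 7 bases with the collagen gene col-103, which stood at 94.4 ± 5.97, 50.6 ± 11.5 and 99.4 ± 31.9 FPKM. The part of these neighbours in the results was not tested.

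Genes around the family in the pathway were read from lists chosen with results of these data known. Among omega and kappa transferases, 3 of 4 tested genes were called lower in WLZ1 and 2 in WLZ3, with none higher, and under quantile normalization 1 and 1. Without rescaling, 41.1% of all tested genes were called lower in WLZ1 and 22.7% in WLZ3. gsto-3, of the omega class, stood at 22.4 ± 0.739 FPKM for N2, 13.2 ± 1.27 for WLZ1 (adjusted p = 0.000199) and 16.9 ± 2.15 for WLZ3 (0.0154). gstk-1, a kappa enzyme, stood at 50.6 ± 9.32, 49.0 ± 3.63 and 50.6 ± 5.00 FPKM and was not called.

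Glutathione synthesis and peroxide removal was mixed, with 5 of 16 genes called higher and 5 lower in WLZ1, and 3 higher and 2 lower in WLZ3. Under median-of-ratios scaling 7 were higher and 3 lower in WLZ1, where 37.0% of all genes were higher and 35.7% lower. The shares of all tested genes without rescaling were 26.6% higher and 41.1% lower in WLZ1, and 13.3% and 22.7% in WLZ3. gss-1, the glutathione synthetase, was higher in both strains at 45.3 ± 1.55 FPKM for N2, 52.2 ± 0.984 for WLZ1 (adjusted p = 0.00167) and 52.1 ± 0.464 for WLZ3 (0.00665). gcs-1, the catalytic subunit of the enzyme before it and a SKN-1 target, stood at 44.1 ± 4.27, 45.5 ± 4.50 and 38.1 ± 4.35 FPKM and was not called. It was called lower in WLZ3 than in WLZ1 under median-of-ratios scaling (0.0238) and without WLZ3 replicate 3 (0.0453), with a range of 0.0238 to 0.228 over the alternatives. gpx-3 and gpx-5, glutathione peroxidases, were lower in both strains, gpx-3 at 7.53 ± 0.459, 2.26 ± 0.130 and 3.90 ± 0.750 FPKM and gpx-5 at 43.997 ± 3.15, 23.8 ± 0.431 and 34.5 ± 4.19. The gpx-5 call in WLZ3 (adjusted p = 0.0158) ended without N2 replicate 2 (0.0596). gss-1 and gcs-1 were picked from the list after their values were seen.

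Of 13 regulators of SKN-1 and gst-4, 4 were called higher and 7 lower in WLZ1, and 2 higher and 4 lower in WLZ3. Under median-of-ratios scaling 6 of them were higher and 5 lower in WLZ1, where 37.0% of all genes were higher and 35.7% lower. Over all tested genes without rescaling, 26.6% were higher and 41.1% lower in WLZ1, and 13.3% and 22.7% in WLZ3. skn-1 itself stood at 98.4 ± 1.19 FPKM for N2, 109 ± 1.63 for WLZ1 (log2 difference 0.14, adjusted p = 0.00566, and 0.147 under quantile normalization) and 98.8 ± 2.41 for WLZ3 (0.01, adjusted p = 0.912). wdr-23, which marks SKN-1 for breakdown, stood at 51.6 ± 0.478, 53.7 ± 0.472 and 51.6 ± 0.897 FPKM and was not called. Median-of-ratios scaling called it higher in WLZ1 (0.00182, with a range of 0.00182 to 0.764 over the alternatives) and lower in WLZ3 than in WLZ1 (0.00816, with a range of 0.00816 to 0.459). skn-1 and wdr-23 were picked after their values were seen. elt-3, a GATA factor of the epidermis that acts on gst-4, stood at 25.3 ± 0.752, 14.8 ± 0.964 and 21.3 ± 0.715 FPKM, and was lower in WLZ1 (adjusted p = 1.12e-05) and WLZ3 (0.0151). The elt-3 call in WLZ3 ended without N2 replicate 2 or 3 (0.0547 and 0.0531) or WLZ3 replicate 2 (0.0544).

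Of 6 SKN-1 target genes outside the family, 4 were called lower in each strain and none higher. Under quantile normalization these were 2 lower and 1 higher in WLZ1 and 3 lower in WLZ3. Without rescaling, 41.1% of all tested genes were lower and 26.6% higher in WLZ1, and 22.7% and 13.3% in WLZ3. nit-1, a nitrilase, stood at 15.995 ± 3.11 FPKM for N2, 8.12 ± 0.964 for WLZ1 (log2 difference -0.89, adjusted p = 0.000447) and 7.12 ± 0.578 for WLZ3 (-1.05, adjusted p = 0.00152). sqst-1, the worm p62 selective autophagy receptor, stood at 78.5 ± 13.5, 41.5 ± 3.13 (adjusted p = 0.000182) and 48.3 ± 3.36 FPKM (0.00413). Both genes kept their calls in all 17 alternatives. Other calls on this list were less steady. In WLZ3 that of sdz-8 ended in most alternatives, among them without N2 replicate 3 (adjusted p = 0.146) and under quantile normalization (0.321). In WLZ1 those of dhs-8 and sdz-8 ended under quantile normalization (0.529 and 0.0915).

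In tyrosine breakdown, the pathway of gst-42, 1 of 5 genes was called higher and 1 lower in WLZ1, and 3 lower in WLZ3. Of all tested genes, 26.6% were higher and 41.1% lower in WLZ1, and 22.7% were lower in WLZ3. hpd-1, the dioxygenase that acts upstream of the isomerase step, stood at 177 ± 11.5 FPKM for N2, 189 ± 10.2 for WLZ1 and 137 ± 10.1 for WLZ3 (adjusted p = 0.0053 in WLZ3), and was called higher in WLZ1 under median-of-ratios scaling (0.0185). fah-1, the hydrolase after it, stood at 67.6 ± 3.61, 64.6 ± 5.00 and 53.8 ± 1.11 FPKM (adjusted p = 0.00601 in WLZ3). WLZ3 was also called lower than WLZ1 in both (adjusted p = 0.00119 and 0.0109), while gst-42 was not called between the strains.

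Exporters and the other detoxification families had more lower than higher calls against N2, as did all tested genes (41.1% lower and 26.6% higher in WLZ1, 22.7% and 13.3% in WLZ3). Quantile normalization turned this order in WLZ1 for the exporters and the cytochrome P450 genes and in both strains for the UDP-glucuronosyltransferase genes. Median-of-ratios scaling turned it in WLZ1 for the other antioxidant enzymes. The order turned over all tested genes as well. Quantile normalization gave 27.3% lower and 35.5% higher in WLZ1, and 15.1% and 15.9% in WLZ3. Median-of-ratios scaling gave 35.7% lower and 37.0% higher in WLZ1. The turns are therefore not shown to be particular to these families. Among 8 multidrug resistance exporters 5 were lower and 2 higher in WLZ1 and 3 lower in WLZ3 (2 lower and 3 higher in WLZ1 under quantile normalization), and mrp-1 stood at 11.9 ± 0.560, 5.34 ± 0.632 and 8.54 ± 0.369 FPKM. Among 51 tested cytochrome P450 genes 26 (51.0%) were lower and 7 higher in WLZ1, and 13 lower and 1 higher in WLZ3, but under quantile normalization WLZ1 had 7 lower and 17 higher. cyp-13B1 stood at 63.6 ± 3.20 FPKM for N2, 14.6 ± 6.06 for WLZ1 (adjusted p = 9.86e-05) and 20.6 ± 5.33 for WLZ3 (0.00287). Among 52 UDP-glucuronosyltransferase genes 27 (51.9%) were lower and 4 higher in WLZ1, and 15 lower and 3 higher in WLZ3, and quantile normalization turned both to 8 lower with 16 higher and 3 lower with 7 higher. ugt-57 stood at 11.7 ± 0.704, 4.65 ± 0.896 and 8.90 ± 0.881 FPKM. Of 17 other antioxidant enzymes 3 were higher and 6 (35.3%) lower in WLZ1 and 4 lower in WLZ3, with 5 higher and 4 lower in WLZ1 under median-of-ratios scaling, among them the catalase ctl-2 at 53.96 ± 1.43, 34.7 ± 0.785 and 40.8 ± 3.72 FPKM.

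**Figure D5:**
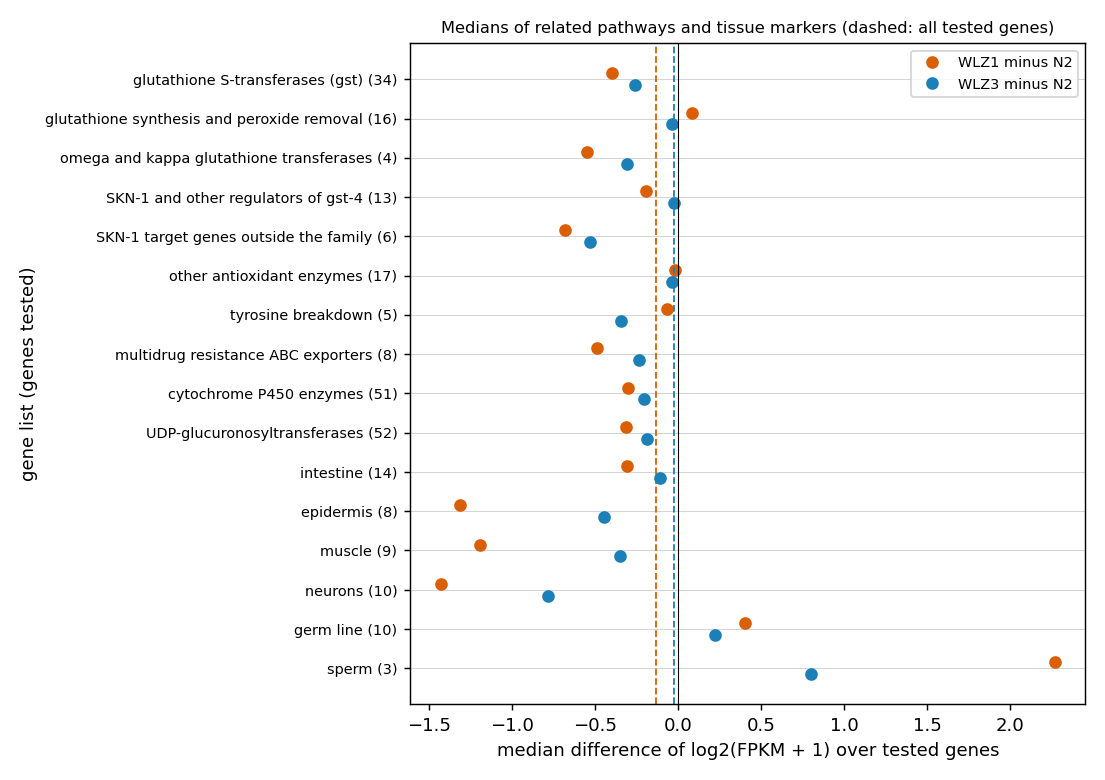
Median difference of log2(FPKM + 1) over the tested genes of each list, for WLZ1 and WLZ3 against the same N2 libraries, with dashed lines at the medians of all tested genes. The GST medians are -0.40 and -0.26, beside -0.13 and -0.02 for all genes, and the tissue markers below them span a wider range.

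Markers of tissues moved with the groups. For every tissue below, the shares of all tested genes were 41.1% lower and 26.6% higher in WLZ1, and 22.7% and 13.3% in WLZ3. In bulk samples fewer cells of a type and less RNA per cell cannot be told apart. The intestine is a tissue in which many GST genes are known to be expressed. Of its 14 markers 7 were called lower and 1 higher in WLZ1 and 2 lower in WLZ3, where all genes had the shares given above. In WLZ1 the counts were 4 lower and 2 higher under median-of-ratios scaling and 3 lower and 1 higher under quantile normalization. Intestine markers had summed levels of 4016 to 4439 FPKM in N2, 3350 to 4067 in WLZ1 and 3357 to 3783 in WLZ3. Epidermis markers were lower in 6 of 8 in WLZ1 and 4 of 8 in WLZ3 with 1 higher, and their sum ran from 963 to 1097, 335 to 422 and 750 to 1083 FPKM. Muscle markers were lower in 9 of 9 and 6 of 9, with sums of 1925 to 2220, 887 to 1033 and 1462 to 1901 FPKM. Neuron markers were lower in 10 of 10 and 9 of 10, with sums of 297 to 378, 151 to 170 and 198 to 228 FPKM. Germ line markers were higher in 10 of 10 and 7 of 10, with sums of 2023 to 2197, 2746 to 2878 and 2373 to 2465 FPKM. Of 6 matched sperm markers 3 were tested, and these were higher in WLZ1 and not called in WLZ3, with sums over the 6 of 3.53 to 5.16, 16.1 to 19.4 and 3.87 to 12.4 FPKM. No marker was at 0 in every library, and the part of tissue make-up or stage in the GST values was not tested.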

How the data were processed

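The authors deposited 1 table of FPKM values for 28749 genes and 9 libraries. The submitters' processing notes name HISAT2 2.2.1, featureCounts 2.0.3 and fastp 0.23.2, with WBcel235 as the build. The FPKM formula, strand use and sequencer per library were not given in the sources used here. Names and positions came from RefSeq and Ensembl release 115 annotation of that build (28744 genes matched). FPKM times exon length gave whole reads (tolerance 0.01) for 90.7% to 91.4% of genes above 0. This gave the depth, searched within a set range of totals. No read counts are given for gst-2 and gst-28. Floors and reads cover counting error only.

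A linear model with limma 3.58.1 in R 4.3.3 and a mean-variance trend was fitted to log2(FPKM + 1) of all 9 libraries, 1 mean per group. It covered 14862 genes that reached 1 FPKM in 3 or more libraries. Adjustment was Benjamini-Hochberg within a comparison, two-sided, with calls under 0.05. Changes are on the log2(FPKM + 1) scale, which understates low genes, and folds are ratios of mean FPKM. The script was tested on simulated data. Summaries used Python 3.11.15 and pandas 2.3.3.

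The genes and lists were chosen with earlier results of these data known. Values were given for gst-1, gst-4, gst-10, gst-24, gst-42, the 6 most abundant genes and up to 6 called genes with the largest change and no overlap per comparison. From each other list up to 3 called genes with the largest change per comparison could be named. There were 17 alternatives: median-of-ratios scaling, quantile normalization, a pseudocount of 0.1 or 0.5, all genes tested, genes averaging 5 FPKM tested, only the 2 groups compared, a replicate block and each library left out.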

Additional observations from a re-analysis of the deposited data

How the results depend on the processing

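Lower calls in WLZ1 against N2 numbered 21, with 10 under quantile normalization and 16 to 22 with a library left out. No gene was called higher, with 2 under median-of-ratios scaling, 3 under quantile normalization and 0 to 1 with a library left out. Lower calls in WLZ3 against N2 numbered 12, with 7 without a filter, 3 under quantile normalization and 6 to 11 with a library left out, and higher calls 0 throughout. WLZ3 against WLZ1 gave 10 higher calls, with 6 under median-of-ratios scaling, 1 under quantile normalization and 5 to 10 with a library left out, and 2 lower calls, with 1 without a filter and 1 to 2 with a library left out. The GST median for WLZ1 against N2, -0.40, was -0.26 and -0.12 under median-of-ratios and quantile normalization and -0.47 to -0.37 with a library left out. For WLZ3 against N2, -0.26, it was -0.31 and -0.30 with pseudocounts of 0.1 and 0.5, -0.18 without a filter, -0.30 when only genes averaging 5 FPKM were tested, -0.24 and -0.14 under the other scalings and -0.29 to -0.22 with a library left out. For WLZ3 against WLZ1, 0.19, it was 0.088 and -0.0067 under the other scalings and 0.16 to 0.22 with a library left out. Median-of-ratios scaling moved the median of all genes in WLZ1 against N2 from -0.13 to -0.01 and quantile normalization to 0.07, so relative to all genes the GST median was -0.27, -0.26 and -0.19. The share of all calls that were lower went from 60.7% to 49.1% and 43.5% there, from 63.1% to 56.6% and 48.7% in WLZ3 against N2 and from 29.8% to 51.9% and 52.1% between the strains. Summed FPKM was 717 in N2, 684 in WLZ1 and 657 in WLZ3 under median-of-ratios scaling, and 722, 670 and 659 under quantile normalization. Both scalings put WLZ3 below WLZ1, the reverse of the order without rescaling. With a library left out the sums were 732 to 757, 641 to 648 and 666 to 674. All genes called in WLZ3 against N2 fell from 5354 to 3151 without N2 replicate 2 and 3380 without N2 replicate 3. Directions turned under quantile normalization for gst-4, gst-22, gst-39 and gst-43 in WLZ1 (0.042, 0.19, 0.020 and 0.042) and gst-24 between the strains (-0.13), and under median-of-ratios scaling for gst-27 in WLZ1 (0.014) and WLZ3 (0.018). With a library left out, values ran across 0 for gst-1 (-0.10 to 0.0049, highest without WLZ3 replicate 3), gst-26 (-0.076 to 0.16, lowest without N2 replicate 2, and under 0 also without WLZ3 replicate 1) and gst-27 (-0.048 to 0.030, above 0 without N2 replicate 1 or WLZ3 replicate 1) in WLZ3 and for gst-7 between the strains (-0.16 to 6.15e-05, highest without WLZ1 replicate 3). In a tally over part of the described GST genes and comparisons, 869 values kept direction and side of the threshold, 130 lost a call, 14 gained one and 13 turned. That tally left out the lost calls of gst-6, gst-23 and gst-35 and those of genes on the other lists. The causes were not tested. Deviations from the group mean correlated between same-numbered libraries at -0.15 to 0.24 over 9 pairs, 2 of them over 0.1. With 3 libraries per group, these values cannot decide whether the numbers pair the samples, and the labels do not say. With the replicate block there were 20 and 9 lower calls against N2, and 8 higher and 2 lower between the strains. Calls that the block ended were those of gst-6 and gst-35 in WLZ1 (0.0659 and 0.0533), gst-19, gst-36 and gst-39 in WLZ3 (0.056, 0.0601 and 0.0507) and gst-20 and gst-40 between the strains (0.0612 and 0.0555), and it called gst-26 lower in WLZ1 (0.0499).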
